A study of Bos taurus with 8 samples.

Results

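Solute carriers (SLCs) are membrane proteins that move nutrients across the plasma and organelle membranes, and 11 of their families were described here in eSLCs (stem-like cells derived from bovine embryos) and in somatic cells (SCs): the glutamate and neutral amino acid carriers SLC1A, the facilitative sugar carriers SLC2A, the heavy subunits SLC3A, the sodium-coupled sugar and vitamin carriers SLC5A, the neurotransmitter and amino acid carriers SLC6A, the light subunits and cationic carriers SLC7A, the monocarboxylate carriers SLC16A, the fatty acid carriers SLC27A, and the amino acid carriers SLC36A, SLC38A and SLC43A. Genes were taken by their symbol. Of 104 RefSeq genes of cattle whose symbol starts with one of these names, 77 had at least 1 named probe on the arrays, out of 12603 genes with a named probe. One of the 77, SLC7A6OS, is not a carrier but a gene on the strand opposite to SLC7A6, and was kept because the rule took symbols alone. SLC36A1, SLC38A1, SLC7A2, SLC7A6 and SLC7A11 were not analysed here, since no probe was named for them.

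The cells were of the HanWoo breed, and each sample was hybridized with 1 dye to a bovine oligo array of its own. The eSLC lines were I2 (passage 35) and I9 (passage 30) from in vitro produced (IVP) embryos, N2 (passage 36) and N7 (passage 30) from nuclear transfer (NT) embryos, and P1 (passage 31) and P4 (passage 36) from parthenogenetically activated (PA) embryos. All eSLCs were kept on inactivated murine STO feeder cells in a serum-free medium with the inhibitors PD184352, SU5402 and CHIR99021, while the SCs, sampled at passages 5 and 10, were grown in DMEM with serum. Cell type and culture therefore cannot be told apart in any comparison of eSLCs with SCs. Each condition had 2 arrays, which limits the precision of every value, and the 2 SC arrays are passages that the labels do not describe as separate animals, so a p-value measures the spread between these arrays.

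Cells take up glucose by facilitated diffusion through the SLC2A proteins, and export or import lactate and pyruvate with protons through SLC16A proteins. Amino acids enter through sodium-coupled carriers such as SLC1A5 and SLC38A2 and are exchanged for other amino acids by heterodimers of an SLC7A light chain with the SLC3A2 heavy chain. The trophectoderm, the outer layer of the blastocyst that forms the fetal part of the placenta, is the tissue through which the ruminant conceptus obtains glucose, fructose, lactate and amino acids.

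The markers of other cell types moved with the comparison. Of 10 tested trophectoderm markers, 8 were called higher in eSLCs (CDX2 at 5183 to 14887 on the eSLC arrays and at the floor on both SC arrays) and 0 lower, and their summed signal was 337638 to 871646 in eSLCs and 13825 and 14747 in SCs. Of 10 fibroblast markers 8 were called lower in eSLCs, with a summed signal of 13421 to 69646 in eSLCs and 551060 and 659477 in SCs. Of 6 tested pluripotency genes 3 were called higher in eSLCs, namely SALL4 (948 to 1464 in eSLCs and 15.5 and 15.4 in SCs), LIN28A (187 to 316, with SCs at the floor) and DPPA4 (88.2 to 391 in eSLCs, above both SC arrays), and 1 lower. NANOG lay at 13.3 to 35.4 on the eSLC arrays, SOX2 was lower in eSLCs (46.8 to 99.4) than in SCs (459 and 551), and POU5F1 was 898 in N7 and no more than 101 in the other eSLC lines. Of 7 tested hypoblast markers 1 was called higher in eSLCs and 1 lower. N7 was far above the other lines for HNF4A (9022 against at most 23.4), GATA4 (2918 against at most 179.8) and APOA1 (112600 against at most 6823). It was the lowest eSLC line for AFP (15.9) and TTR (22.2) and within the range of the others for SOX17 and FOXA1. Across all 10958 tested genes, the lines I9 and N2, labelled as IVP and NT and placed on different slides, were the closest pair of eSLCs, with a median absolute log2 difference of 0.19, while the lines of 1 origin differed by 0.32 (I2 and I9), 0.32 (P1 and P4) and 0.44 (N2 and N7). The part of these marker and line differences in the results below was not tested. In such bulk samples, fewer cells of a type and less RNA per cell cannot be told apart.

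Signals are given with the 75th percentile of each array set to 1000 and a floor at 13.3. Tests were limited to genes that the scanner software marked as well above background on both arrays of 1 or more conditions, which 61 of the 77 genes met. A gene was called when the limma adjusted p was under 0.05 and the difference at least 2-fold. Of the 16 genes that were not tested, 8 were not well above background on any array. A log2 difference between eSLCs and SCs is the mean over the 3 origins minus the mean of the SC arrays, and is given with its standard error (SE). Arrays of a condition that all lie at the floor show no spread. For such genes the SE and the p-value understate the spread between arrays.

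Genes of the SLC families were more often higher than lower in eSLCs. Of the 61 tested, 29 were called higher, where 19.7% of all tested genes were, and 7 were called lower, where 15.7% of all tested genes were. The median log2 difference was 1.06 over the 61 genes and 0.23 over all tested genes. All 6 eSLC arrays lay above both SC arrays for 35 of the 61, against 34.0% of all tested genes, and below both for 11, against 23.6% of all tested genes. Grouped by family, the called genes were 6 higher and 0 lower of 8 tested monocarboxylate carriers (median log2 difference 2.67), 3 higher and 0 lower of 5 fatty acid carriers (1.31), 16 higher and 6 lower of 34 genes of the amino acid families (0.88), and 4 higher and 1 lower of 14 carriers of the SLC2A and SLC5A families (0.54). The 34 genes include SLC7A6OS and relatives that carry other substrates, such as serotonin, creatine and nucleobases. Likewise, the 8 monocarboxylate carriers are all tested SLC16A genes, and include relatives that carry other substrates, such as aromatic amino acids. With either SC array left out, 15 of the 29 higher calls were kept; of the 7 lower calls, 3 were kept without either of them, and without both I9 and N2 the counts over all 61 genes were 30 higher and 6 lower.

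**Figure D1:**
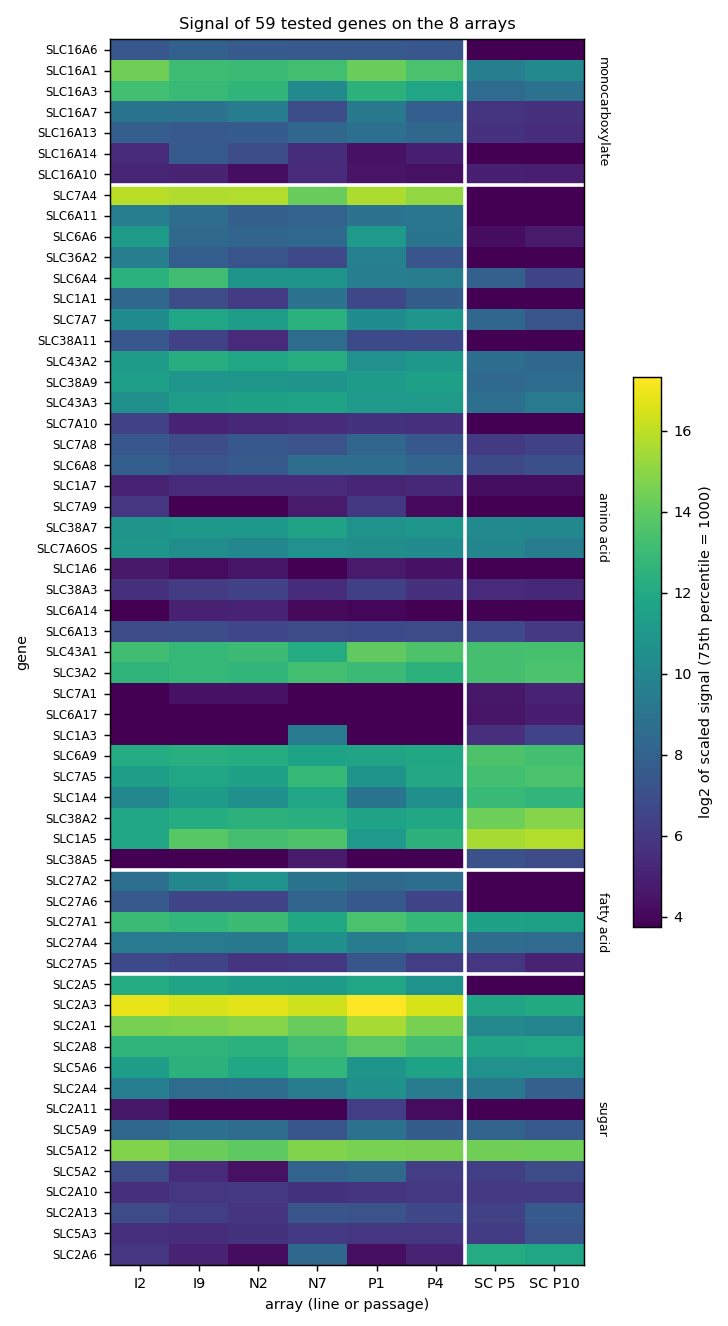
The map shows the log2 signal of 59 of the 61 tested genes (rows, by family group and then by the eSLC minus SC difference) on the 6 eSLC and 2 SC arrays (columns); a signal of 1000 is the 75th percentile of an array. The genes at the top of each block are brighter on the eSLC arrays than on the SC arrays, and SLC1A5, SLC38A2 and SLC2A6 at the foot of their blocks show the opposite.

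**Figure D2:**
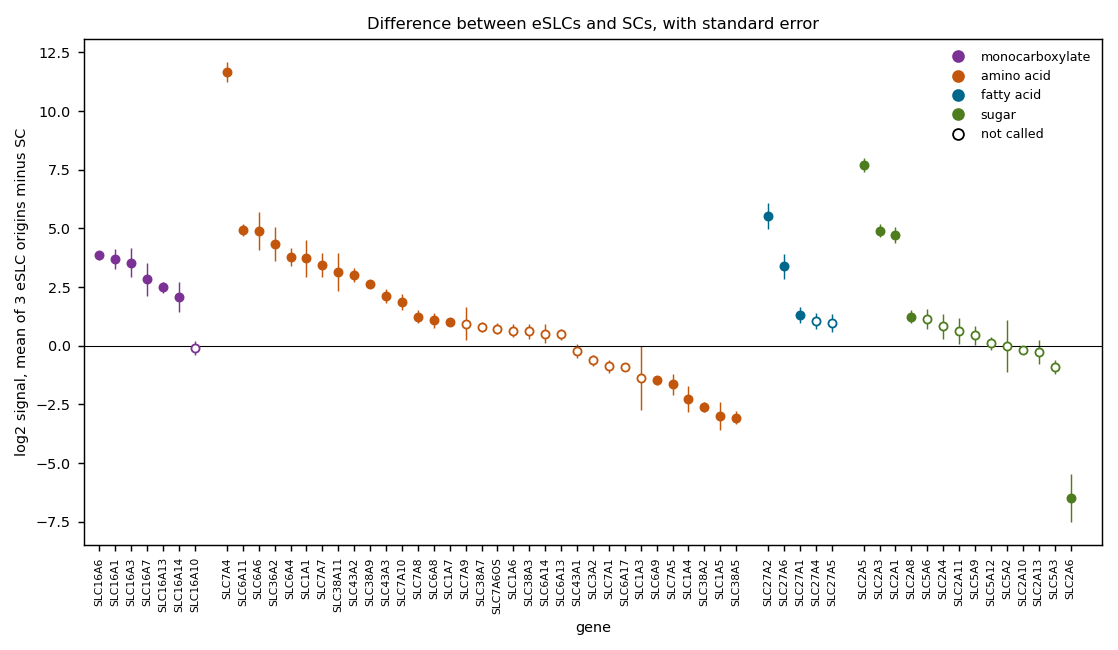
Each point is the log2 difference between eSLCs and SCs of 1 of 59 tested genes, with its SE from the limma fit as the bar; filled points were called. The highest point is SLC7A4 (11.66), which like every gene at the floor in SCs is a lower bound, the lowest point is SLC2A6 (-6.47), and no monocarboxylate or fatty acid carrier was called lower.

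Among the sugar carriers, the glucose carriers SLC2A1 and SLC2A3 and the fructose carrier SLC2A5 were far brighter in every eSLC line than in SCs. SLC2A1 (GLUT1, NM_174602), the carrier of basal glucose uptake in most cells, had signals of 24198 in I2, 25557 in I9, 29685 in N2, 18225 in N7, 48710 in P1 and 23547 in P4, and 1132 and 924 in SC P5 and SC P10. The lowest eSLC line, N7, was above both SC arrays, and the log2 difference was 4.72 ± 0.33 (26.4-fold, adjusted p = 0.000172). SLC2A3 (GLUT3, NM_174603), a carrier of high glucose affinity, had signals of 122418 in I2, 94297 in I9, 109493 in N2, 83289 in N7, 165205 in P1 and 93039 in P4, and 3222 and 4090 in SC P5 and SC P10. Its 6 probes well above background gave differences of 4.43 to 5.43, all higher in eSLCs, and the reported probe differed by 4.90 ± 0.28 (adjusted p = 7.50e-05). SLC2A5 (GLUT5, NM_001101042) stood at 4481 in I2, 3219 in I9, 2516 in N2, 2252 in N7, 3413 in P1 and 1689 in P4, and was at the floor and not well above background on both SC arrays. It was therefore at least 210.0-fold higher in eSLCs (adjusted p = 1.72e-05), and no eSLC line overlapped with the SCs. These 3 calls held with either SC array left out.

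SLC2A8 (GLUT8, NM_201528), a carrier of intracellular membranes, was higher by a smaller margin, with signals of 5452 to 14610 (median 7677) in eSLCs and 3252 and 3556 in SCs, with a log2 difference of 1.23 ± 0.28 (adjusted p = 0.014). This call was lost with either SC array left out. The insulin-responsive carrier SLC2A4 (GLUT4, NM_174604) was not called (0.83 ± 0.52, adjusted p = 0.236). Its signals of 368 to 1487 (median 725) in eSLCs and 585 and 241 in SCs overlapped, and the 2 SC passages were themselves 1.28 apart on the log2 scale. SLC2A10, SLC2A11 and SLC2A13 were not called either, with log2 differences of -0.19, 0.63 and -0.27. A second probe of SLC2A10, well above background on 7 arrays, gave -2.59. The liver and islet glucose carrier SLC2A2 (GLUT2, NM_001103222) was not tested. It stood at 263 in N7 and at the floor on the other 7 arrays.

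SLC2A6 (GLUT6, NM_001080256), a lysosomal member of the sugar family, was the one carrier of sugar families called lower in eSLCs. Its signals were 58.1 in I2, 32.6 in I9, 18.1 in N2, 312 in N7, 19.2 in P1 and 32.7 in P4, and 4413 and 3363 in SC P5 and SC P10. All eSLC lines lay below the SCs, with a log2 difference of -6.47 ± 1.02 (88.6-fold lower, adjusted p = 0.00372), and a second probe gave -3.15. N7 was the highest eSLC line and N2 the lowest, 17.2 times apart, and the call was lost with either SC array left out.

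None of the 5 tested SLC5A genes was called. SLC5A6 (NM_001046219), the sodium-coupled carrier of biotin and pantothenate, had signals of 1731 to 6892 (median 3508) in eSLCs and 1590 and 1623 in SCs, with all eSLC lines above the SCs, but its log2 difference of 1.16 ± 0.42 had an adjusted p of 0.0671. The lactate carrier SLC5A12 was near the same signal in both (15988 to 28144 in eSLCs and 21579 and 20981 in SCs), on 1 probe only, since its other probe was not well above background on any array. The kidney glucose carrier SLC5A2 (NM_203360) varied 17.2-fold among eSLC lines, from 20.3 in N2 to 348 in P1, around SC signals of 76.4 and 117. The inositol carrier SLC5A3 and the glucose-type carrier SLC5A9 had log2 differences of -0.89 and 0.45. SLC5A1 (NM_174606), the intestinal glucose carrier, was at the floor on all 8 arrays.

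**Figure D3:**
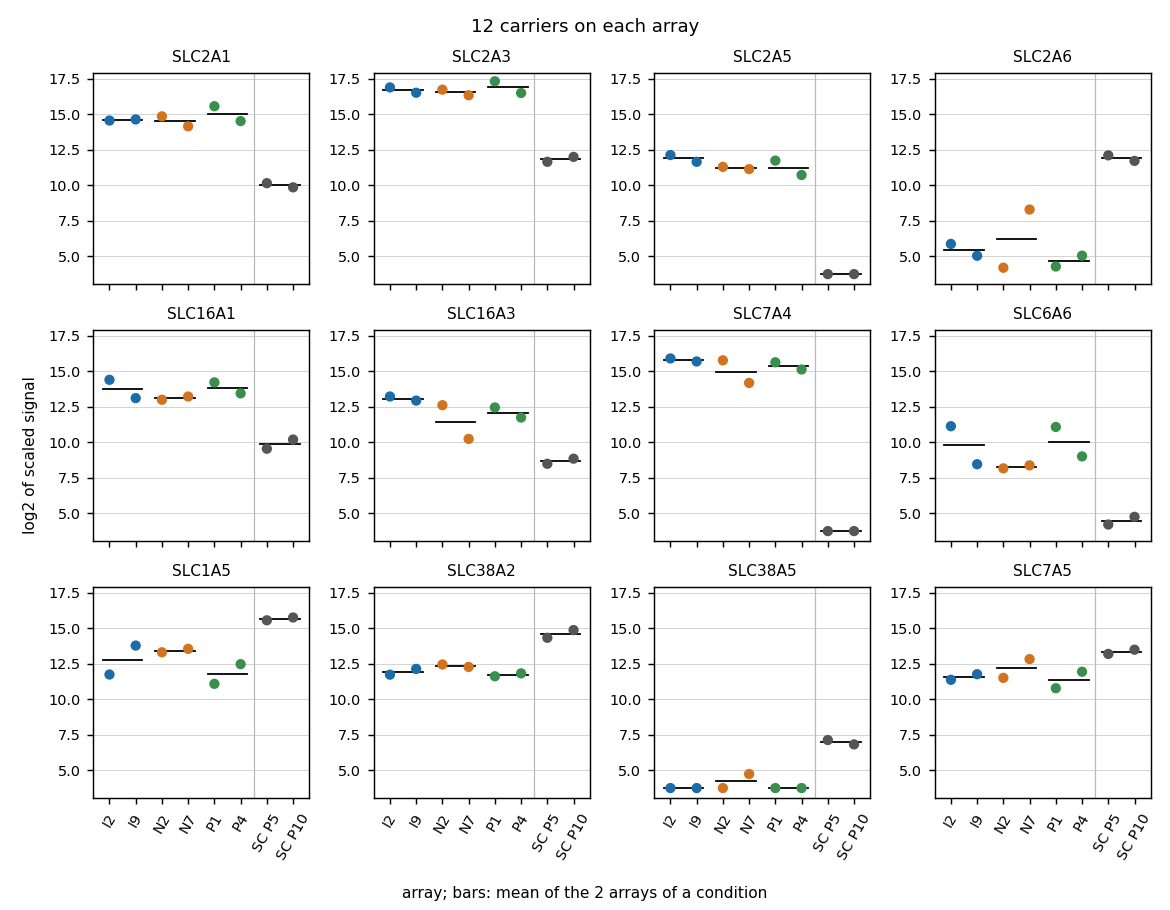
Log2 signals of 12 carriers on the 8 arrays; points are single arrays, coloured by condition, and bars are the mean of the 2 arrays of a condition. SLC2A1, SLC2A3, SLC2A5, SLC16A1, SLC16A3, SLC7A4 and SLC6A6 are higher on all 6 eSLC arrays than on either SC array, and SLC2A6, SLC1A5, SLC38A2, SLC38A5 and SLC7A5 are lower on all 6.

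Of the 4 groups of families, the monocarboxylate carrier family SLC16A, taken whole, held the highest share of calls. SLC16A1 (MCT1, NM_001037319), which carries lactate, pyruvate and ketone bodies, had signals of 21651 in I2, 8848 in I9, 8172 in N2, 9559 in N7, 19099 in P1 and 11149 in P4, and 745 and 1166 in SC P5 and SC P10. Every eSLC line was above the SCs, with a log2 difference of 3.70 ± 0.41 (13.0-fold, adjusted p = 0.000981). The lactate exporter SLC16A3 (MCT4, NM_001109980) had signals of 9577 in I2, 7840 in I9, 6256 in N2, 1202 in N7, 5605 in P1 and 3416 in P4, and 357 and 458 in SC P5 and SC P10. N7 was the lowest eSLC line and still above the SCs, and the log2 difference was 3.54 ± 0.61 (adjusted p = 0.00527), with 2.42 on a dimmer probe. SLC16A7 (MCT2, NM_001076336), a pyruvate carrier of high affinity, also had its lowest eSLC value in N7 (124 to 705 in eSLCs and 54.3 and 50.7 in SCs), and differed by 2.84 ± 0.70 (adjusted p = 0.0191). The calls of SLC16A3 and SLC16A7 were lost with either SC array left out, and that of SLC16A1 was kept.

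SLC16A6, SLC16A13 and SLC16A14, less studied members, were also called higher; the first 2 fell outside the rule for named genes and were chosen after their values were seen. SLC16A6 (NM_001192672) lay at 169.9 to 252 in eSLCs and at the floor in SCs, at least 14.6-fold higher (adjusted p = 4.19e-05). SLC16A13 (NM_001076132) had signals of 182 to 411 (median 272) in eSLCs and 50.5 and 44.5 in SCs, a log2 difference of 2.49 ± 0.23, and a second probe gave 1.22. SLC16A14 (NM_001192187) was at 41.6 in I2, 188 in I9, 125 in N2, 46.1 in N7, 21.4 in P1 and 31.0 in P4, at least 4.20-fold above SCs at the floor, with an adjusted p of 0.0416 and a call that was lost under 15 of the 22 alternatives that gave a value. SLC16A10 (NM_001192847), a carrier of aromatic amino acids, was not called, with signals of 19.2 to 42.6 (median 27.7) in eSLCs and 30.2 and 28.9 in SCs and probes of either sign.

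The chaperone of SLC16A1 and SLC16A3 was measured in a list of 35 genes that assist carriers, regulate uptake or handle its products. Of the 29 tested, 7 were called higher and 9 lower, where 19.7% and 15.7% of all tested genes were. Basigin (BSG), which brings both carriers to the cell surface, was higher in eSLCs with signals of 22880 to 47956 in eSLCs and 13690 and 8882 in SCs, with a log2 difference of 1.65 ± 0.29 (adjusted p = 0.00594). LDHA, the lactate dehydrogenase subunit of glycolytic cells, was higher by 1.97 ± 0.34 (signals of 49203 to 157822 in eSLCs and 20564 and 30479 in SCs, adjusted p = 0.00511). The call of BSG was lost without SC P10 and that of LDHA without SC P5. The hexokinase HK1 was lower by less than 2-fold (-0.69 ± 0.17) and not called. TXNIP, a glucose-induced inhibitor of glucose uptake, was lower, with a log2 difference of -2.06 ± 0.61 (limma adjusted p = 0.036). Its call was lost under 11 of 23 alternatives, among them either SC array left out, no filter and a doubled floor.

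The amino acid carriers moved in both directions. SLC7A4 (NM_001192042), a member of the cationic amino acid carrier family whose own substrate is not settled, was bright in eSLCs and at the floor in SCs. Its probe was marked well above background on 7 of the 8 arrays, hence on at least 1 SC array. Its signals were 61523 in I2, 53104 in I9, 56101 in N2, 18588 in N7, 50938 in P1 and 35867 in P4, and it was at the floor on both SC arrays. The log2 difference of 11.66 is a lower bound of 3229-fold (adjusted p = 1.42e-05), and a second probe, also with SCs at the floor, gave a log2 difference of 7.76. All eSLC lines were high, with N7 the lowest of them.

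Several sodium-coupled carriers of the SLC6A family were higher. SLC6A6 (NM_174610), which carries taurine, had signals of 2237 in I2, 349 in I9, 285 in N2, 331 in N7, 2155 in P1 and 512 in P4, and 18.3 and 26.7 in SC P5 and SC P10. I2 and P1 were the high lines, with I2 at 7.85 times N2, and the log2 difference to SCs was 4.90 ± 0.82 (adjusted p = 0.00478). SLC6A4 (NM_174609), the serotonin carrier, had signals of 5394 in I2, 9257 in I9, 1762 in N2, 1730 in N7, 759 in P1 and 728 in P4, and 239.8 and 96.3 in SC P5 and SC P10. Both IVP lines were above both NT lines, and both NT lines above both PA lines, with no overlap with SCs (log2 difference to SCs 3.78 ± 0.39, adjusted p = 0.000686). A second probe of this gene was well above background on 1 array only and gives no comparison. SLC6A11 (NM_001206903), a carrier of GABA, was at the floor in SCs and lay at 230.2 to 741 in eSLCs, at least 30.4-fold higher (adjusted p = 5.76e-05), and its second probe, well above background on 5 arrays, gave a log2 difference of 0.97, also with SCs at the floor. The creatine carrier SLC6A8 (NM_174611) was called at 1.09 ± 0.33 (adjusted p = 0.0376), a call that 15 of 23 alternatives did not keep.

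Of the exchangers of the SLC7A family and the facilitators of the SLC43A family, SLC7A7, SLC43A2 and SLC43A3 were higher in each eSLC line than in SCs. SLC7A7 (y+LAT1, NM_001075151), a light chain that exports cationic amino acids, had signals of 1319 in I2, 3331 in I9, 2601 in N2, 5501 in N7, 1308 in P1 and 1864 in P4, and 299 and 152 in SC P5 and SC P10. N7 and I9 were the highest lines, the log2 difference was 3.44 ± 0.50 (adjusted p = 0.00275), and a second probe gave 0.70. SLC43A2 (LAT4, NM_001075546), a facilitator for branched-chain amino acids and phenylalanine, had signals of 1594 to 4740 (median 2939) in eSLCs and 399.9 and 324 in SCs, and differed by 3.01 ± 0.30 (adjusted p = 0.00067). The nucleobase carrier SLC43A3 (NM_001038126) differed by 2.13 ± 0.29 (adjusted p = 0.00211). Its relative SLC43A1 (LAT3, NM_001206598) was not called, with signals of 4440 to 16251 (median 8887) in eSLCs and 10090 and 10546 in SCs. The light chain SLC7A8 (LAT2, NM_001192889) was called higher at 1.24 ± 0.26 (adjusted p = 0.0112), a call lost with either SC array left out.

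Carriers of acidic and small amino acids were among the dim genes that were higher in eSLCs. SLC1A1 (EAAT3, NM_174599), which carries glutamate, aspartate and cysteine, lay at 326 in I2, 113 in I9, 70.7 in N2, 487 in N7, 104 in P1 and 217 in P4, and was at least 13.2-fold above SCs at the floor (adjusted p = 0.012). SLC36A2 (NM_001206180), a proton-coupled carrier of glycine and proline, lay at 763 in I2, 220.3 in I9, 151 in N2, 106 in N7, 831 in P1 and 163 in P4. It was at the floor on both SC arrays, although marked well above background there, and was at least 20.1-fold higher in eSLCs (adjusted p = 0.00462), and a second probe gave a log2 difference of 2.72. SLC38A11 (NM_001031760), a member with little described function, was at least 8.82-fold higher (adjusted p = 0.0222). The calls of these 3 genes, and of SLC6A6, were lost with either SC array left out. That of SLC38A11 was lost under 8 of 22 alternatives.

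Another 3 genes outside the rule for named genes were called higher and were chosen after their values were seen. SLC38A9 (NM_001102163), the lysosomal arginine sensor of the mTORC1 pathway, had signals of 1762 to 2771 (median 2196) in eSLCs and 338 and 377 in SCs, with a log2 difference of 2.63 ± 0.19 (adjusted p = 0.000184). SLC7A10 (NM_001104989), a carrier of small neutral amino acids, was at least 3.65-fold higher, and the glutamate carrier SLC1A7 (NM_001205904) was at the edge of the 2-fold threshold with 1.01 ± 0.17. The call of SLC7A10 was lost with either SC array left out, and that of SLC1A7 under 9 of 23 alternatives, median and quantile scaling among them.

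The 6 amino acid carriers called lower in eSLCs were SLC1A5, SLC1A4, SLC38A2, SLC7A5, SLC6A9 and SLC38A5. SLC1A5 (ASCT2, NM_174601), a sodium-dependent exchanger of glutamine and other neutral amino acids, had signals of 3421 in I2, 14088 in I9, 10161 in N2, 12011 in N7, 2170 in P1 and 5679 in P4, and 48441 and 55584 in SC P5 and SC P10. P1 and I2 were the lowest lines, no line reached the SCs, and the log2 difference was -3.01 ± 0.60 (8.04-fold lower, adjusted p = 0.00915). SLC1A4 (ASCT1, NM_001081577), which carries alanine, serine and cysteine, had signals of 1065 in I2, 2449 in I9, 1495 in N2, 3411 in N7, 522 in P1 and 1489 in P4, and 7784 and 6598 in SC P5 and SC P10. Here too P1 and I2 were the lowest lines, with a log2 difference to SCs of -2.28 ± 0.56 (adjusted p = 0.0185). SLC38A2 (SNAT2, NM_001082424), the carrier that cells induce when amino acids are scarce, had signals of 3396 in I2, 4503 in I9, 5590 in N2, 4955 in N7, 3142 in P1 and 3618 in P4, and 20636 and 30054 in SC P5 and SC P10. The eSLC lines lay close together and all below the SCs, with a log2 difference of -2.60 ± 0.22 (6.06-fold lower, adjusted p = 0.000321), and its 5 probes well above background all gave a lower signal.

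SLC7A5 (LAT1, NM_174613), the light chain that imports leucine and other large neutral amino acids, had signals of 2644 in I2, 3473 in I9, 2906 in N2, 7264 in N7, 1750 in P1 and 3920 in P4, and 9366 and 11515 in SC P5 and SC P10. N7 came closest to the SCs, and the log2 difference was -1.65 ± 0.45 (adjusted p = 0.0277). Its heavy chain SLC3A2 (NM_001024488) was not called (-0.62 ± 0.23, adjusted p = 0.0678), and a second probe of SLC3A2 gave 0.28. The glycine carrier SLC6A9 (GLYT1, NM_001242342) had signals of 3187 to 4896 (median 3973) in eSLCs and 11763 and 9994 in SCs, with a log2 difference of -1.47 ± 0.20 (adjusted p = 0.00195). All 4 of its probes were lower in eSLCs, and the reported one, the brightest, gave the smallest difference; another that was well above background on all 8 arrays gave -4.79. SLC38A5 (SNAT5, NM_001015580), a carrier of glutamine, histidine and glycine, was at the floor in 5 eSLC lines, at 26.4 in N7 and at 139 and 113 in the SCs (adjusted p = 0.000447). It was well above background in only 1 eSLC line, so the floor limits its log2 difference of -3.07. The calls of SLC1A5, SLC1A4 and SLC7A5 were lost with either SC array left out, those of SLC1A4 and SLC7A5 also without I9 and N2, and those of SLC38A2, SLC6A9 and SLC38A5 were kept. That of SLC7A5 was lost under 10 of 23 alternatives, the authors' normalized values among them.

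Other amino acid carriers of the core list were dim. The arginine and lysine carrier SLC7A1 (CAT1, NM_001135792) had signals of 13.3 to 21.1 (median 13.3) in eSLCs and 24.0 and 33.6 in SCs and an adjusted p of 0.0468, but was not called at a log2 difference of -0.87, whose size the floor limits, since 4 of the 6 eSLC lines were at it. SLC38A3 (NM_001040486), a glutamine carrier, and SLC6A14 (NM_001098461), a carrier of neutral and cationic amino acids, were not called at 0.62 ± 0.31 and 0.52 ± 0.40. With the authors' normalized values, SLC38A3 rose past the threshold, at a log2 difference of 2.28. The glial glutamate carrier SLC1A3 (NM_174600) was at the floor in 5 eSLC lines and at 683 in N7, with SC signals of 49.1 and 89.6 between them. SLC3A1 was at the floor throughout, SLC38A4 was above it only in I2 (18.2) and SLC7A3 only in N7 (18.0), and these 3 were not tested.

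Genes that respond to amino acid supply were measured beside these carriers. Asparagine synthetase (ASNS) was lower in eSLCs, with signals of 1064 in I2, 3714 in I9, 2909 in N2, 4338 in N7, 912 in P1 and 2154 in P4, and 11022 and 10737 in SC P5 and SC P10. As for SLC1A4 and SLC1A5, P1 and I2 were its lowest lines, and the log2 difference was -2.34 ± 0.55 (adjusted p = 0.0165). CHAC1, a glutathione-degrading enzyme of the same response, was lower, with a log2 difference of -2.02 ± 0.28 (adjusted p = 0.00219), while ATF4, the transcription factor of that response, was not called (-0.37 ± 0.29, adjusted p = 0.325), and neither were TRIB3, SESN2 and DDIT4. Glutamine synthetase (GLUL) was higher, with a log2 difference of 1.29 ± 0.30 (adjusted p = 0.0152). GCLM, a subunit of the enzyme that starts glutathione synthesis, was higher (1.49 ± 0.35, adjusted p = 0.0172). CLTRN, a partner of kidney amino acid carriers, and MYC, which raises expression of several amino acid carriers, were lower (-1.92 ± 0.25 and -1.49 ± 0.43). The calls of ASNS, GLUL, GCLM and MYC were lost with either SC array left out. That of MYC was lost under 10 of 23 alternatives.

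The fatty acid carriers, acyl-CoA synthetases of membranes that promote uptake of long-chain fatty acids, were higher in eSLCs for 3 of 5 genes. SLC27A2 (FATP2, NM_001192863) had signals of 418 in I2, 1076 in I9, 1661 in N2, 496 in N7, 350.4 in P1 and 404 in P4 and was at the floor in SCs. It was at least 46.1-fold higher in eSLCs (adjusted p = 0.000606), with N2 and I9 the highest lines. SLC27A6 (FATP6, NM_001101169) lay at 88.0 to 284 and was at least 10.4-fold above SCs at the floor (adjusted p = 0.00374), and a second probe gave a log2 difference of 1.82. SLC27A1 (FATP1, NM_001033625), the family member of muscle and fat, differed by 1.31 ± 0.35 (adjusted p = 0.0254). The calls of SLC27A1 and SLC27A6 were lost with either SC array left out. That of SLC27A1 was lost under 9 of 23 alternatives, the authors' normalized values among them. SLC27A4 (FATP4, NM_001075667) was not called at 1.06 ± 0.35 (adjusted p = 0.051), with all eSLC lines above the SCs, and SLC27A5, a bile acid-CoA ligase of liver, was not called at 0.96 ± 0.38.

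Of the intracellular proteins that bind or activate fatty acids, different genes of each family lay on each side. ACSL6, an acyl-CoA synthetase of brain and blood cells, was at 9721 to 21457 in eSLCs and at 44.9 and 70.5 in SCs (log2 difference 8.13 ± 0.28, adjusted p = 1.22e-05), and ACSL3, which serves lipid droplet formation, was higher by 3.45 ± 0.32 (adjusted p = 0.000458). ACSL1 and ACSL5, synthetases of fat, liver and intestine, were lower, with log2 differences of -3.87 ± 0.73 and -4.86 ± 0.60. The binding protein FABP5 was higher by 4.25 ± 0.54 (adjusted p = 0.00167). The adipocyte protein FABP4 was at the floor on all eSLC arrays and at 1179 and 1464 in SCs, at least 98.9-fold lower in eSLCs (adjusted p = 5.16e-06). The call of ACSL1 was lost with either SC array left out.

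Within each slide of 4 arrays, the eSLC lines could be set against the SC array of the same slide, without a test. Slide 1 held I2, I9, N7 and SC P5, and slide 2 held N2, P1, P4 and SC P10. All 29 genes called higher were higher within both slides, and all 7 called lower were lower within both. The calls were made on these same arrays, so this is no separate check of them. A difference of at least 2-fold within each slide was found upwards for 28 of the 61 genes, against 18.7% of all tested genes, and downwards for 7, against 15.4% of all tested genes. SLC2A6 had the largest gap between the slides among called genes, at -5.72 on slide 1, which holds N7, and -7.22 on slide 2. With the slide as a term in the fit, 28 were called higher and 7 lower.

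**Figure D4:**
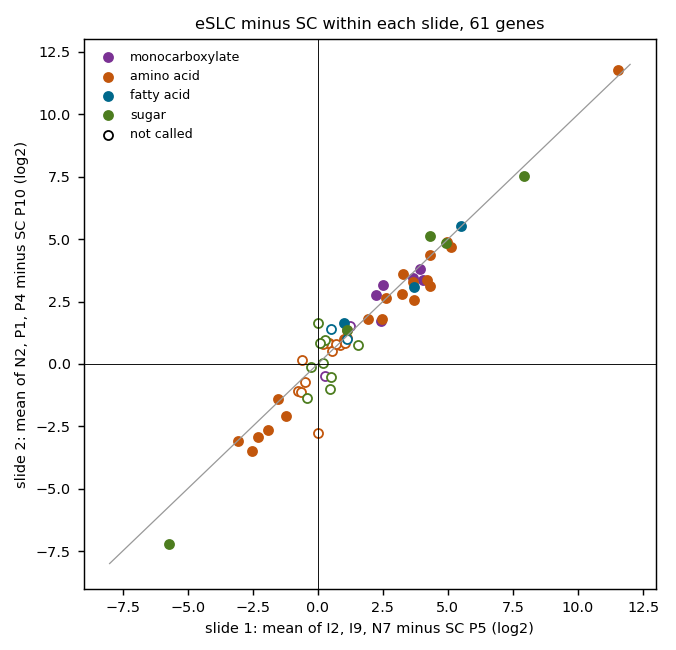
Each point is 1 of the 61 tested genes, with its eSLC minus SC log2 difference on slide 1 (horizontal) and slide 2 (vertical); filled points were called over both slides, and the line marks equal differences. All filled points lie in the upper right or lower left of the plot, so every called gene differed the same way on both slides. The calls were made on these same arrays.

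Each origin was also set against the SCs, and these comparisons share the 2 SC arrays. In IVP-eSLCs 24 of the 61 genes were called higher (17.7% of all tested genes) and 6 lower (14.6%). In NT-eSLCs 23 were called higher (15.8% of all tested genes) and 4 lower (13.9%), and in PA-eSLCs 26 were called higher (20.3%) and 8 lower (14.9%). The log2 differences of IVP-, NT- and PA-eSLCs to SCs were 4.60, 4.51 and 5.05 for SLC2A1. They were 4.42, 2.76 and 3.44 for SLC16A3, whose NT mean holds the low value of N7. For SLC1A5 they were -2.90, -2.23 and -3.89, and for SLC6A4 5.54, 3.52 and 2.29. Some of these counts rested on single arrays: without P1 the PA counts were 15 higher and 3 lower, without I2 the IVP lower count was 2, and without SC P5 or SC P10 the higher counts were 12 to 15 and the lower counts 3 to 5 over the 3 origins.

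Between origins, limma called 0 of the 61 genes either way in NT- against IVP-eSLCs (0% of all tested genes) and 0 in PA- against IVP-eSLCs (0%). At an unadjusted p under 0.05 there were 2 of these genes in the first comparison and 3 in the second, and the methods' t-test without adjustment called 1 lower in each. SLC6A4 showed the clearest order of origins, with differences of -2.02 ± 0.47 for NT- and -3.25 ± 0.47 for PA- against IVP-eSLCs, with adjusted p-values of 1 and 0.852. Each origin had 2 lines, and over all 10958 tested genes the lowest limma adjusted p for PA- against IVP-eSLCs was 0.56. Why no gene was called between origins was not tested.

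The range among eSLC lines was wider for these genes than for all tested genes. Over the 6 eSLC arrays the median range of a gene was 1.42 on the log2 scale for the 61 genes and 0.93 for all tested genes, and 21 of the 61 (34.4%) spanned at least 4-fold against 14.3% of all tested genes. This comparison is a description with no test. N7 was the highest line for 19 of the 61 genes (31.1%, against 20.3% of all tested genes) and the lowest for 14 (23.0% against 26.5%). P1 was the highest for 17 (27.9% against 24.8%) and the lowest for 10 (16.4% against 17.3%), and N2 the lowest for 16 (26.2% against 17.6%).

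Across pairs of lines, I9 and N2 were also the closest in carriers, with a median absolute log2 difference of 0.27 and 3 genes at least 2-fold apart. The next pair, I2 and P1, again joined different origins and slides, at 0.43 with 8 genes 2-fold apart. The lines of 1 origin were apart by 0.51 (P1 and P4, 17 genes), 0.52 (I2 and I9, 18 genes) and 0.77 (N2 and N7, 21 genes), and N7 and P1 were the farthest apart at 0.99 (29 genes). The 2 SC passages were apart by 0.18 over the 61 genes and by 0.21 over all tested genes, where I9 and N2 were apart by 0.19.

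The widest ranges fell on a few lines. SLC36A2, like SLC6A6, was high in I2 (763) and P1 (831) and between 106 and 220.3 in the other 4 lines. SLC38A11 was highest in N7 (368) and lowest in N2 (40.1). SLC16A14 and SLC27A2 were high in I9 and N2. In N7, SLC1A3, SLC2A2, SLC2A6 and SLC1A1 were at their highest, and SLC16A3, SLC16A7, SLC36A2 and SLC7A4 at their lowest among the eSLC lines.

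**Figure D5:**
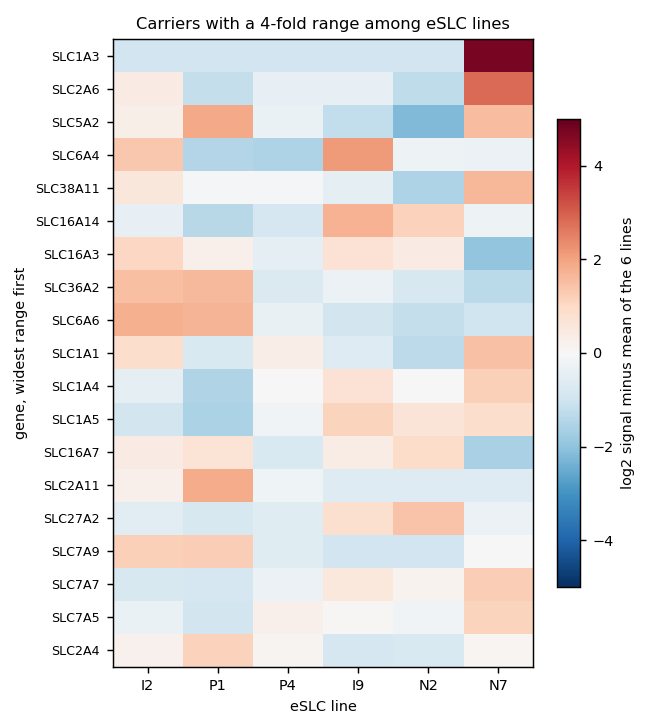
The map shows, for 19 of the 21 tested genes with a range of at least 4-fold among eSLC lines, the log2 signal of each line minus the mean of the 6 lines. N7 is far above the other lines for SLC1A3 and SLC2A6, and I2 and P1 share high SLC36A2 and SLC6A6 and low SLC1A4 and SLC1A5.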

How the data were processed

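RNA of 6 bovine eSLC lines and of SCs at 2 passages was measured on 8 one-colour arrays. The authors scanned the arrays with Feature Extraction 11.5.1.1 and deposited signal intensities per spot, with no normalization between arrays, and a table of intensities after their own GeneSpring normalization, whose method is not given in the sources used here. The background-subtracted intensity was used because the processed signal followed it with a Spearman correlation of only 0.16 to 0.22 in 6 of the 8 files. Control and outlier spots were left out, spots of a probe averaged, signals divided by the 75th percentile of the array (1192 to 4092 scanner units, which was 75.3 to 136 times the dimmest detected signal) and multiplied by 1000, and their log2 was taken after lower values were set to 13.3. Between 71.2% and 76.7% of spots were well above background and 0 were saturated. Of 43653 probes, 26743 were named through RefSeq accessions, and the brightest probe stood for a gene. 37 tested members had more than 1 probe well above background, and 3 of them had probes of either sign.

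Conditions were compared with limma 3.58.1 in R 4.3.3 (lmFit, eBayes, a mean per condition, all 8 arrays), with Benjamini-Hochberg adjustment over 10958 genes. On simulated data of 10958 genes with 200 changed 4-fold, this step recovered 73.5% for eSLCs against SCs, with 9 unchanged genes called. For NT- and PA- against IVP-eSLCs it recovered 48.5% and 51%. The members and lists were chosen with earlier results of these data known. Genes were named if they were on a core list of well-studied carriers, among the 8 largest called rises or falls in eSLCs, among the 8 widest ranges over eSLC lines, or called between origins. Alternatives were other scalings (median, quantile), filters, floors, probe rules and signals, the authors' normalized values, the SC arrays as 1 sample, only the conditions compared, the eSLC arrays as 1 group, the slide as a block, the methods' t-test and each array left out; 1 more, leaving out I9 and N2, was chosen after seeing the data. The normexp correction was run on the median signal. Some genes counted here are not reported by name. A planned search of promoters for motifs was not run. Figures were drawn with matplotlib 3.10.9 in Python 3.11.15.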

Additional observations from a re-analysis of the deposited data

Results flagged for a closer look

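Among 47 named or called genes with a test, 2 had 1 eSLC array far from the other 5, with a gap equal to the whole range of the 6 arrays because the other 5 shared the floor. Chance marks about 1 in 20 groups of arrays in this way, a rate that does not apply to values at a floor. SLC1A3 was at 683.3 in N7 and at the floor in the other 5 eSLC lines. SLC38A5 was at 26.43 in N7 and at the floor in the other 5. Both are N7, the line that was highest for HNF4A, GATA4 and APOA1 but not for the other 4 tested hypoblast markers, and the part of this in these values was not tested.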

How the results depend on the processing

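No paired analysis was possible because the labels give no replicate number that links arrays of different conditions. Of the 36 called genes, 17 kept their call under every alternative that gave a value other than the scanner software's processed signal, and 27 kept their direction under all of them. Over 47 genes with 22 or 23 alternatives each, 897 values stayed on their side of the threshold, 131 fell below it, 12 rose past it and 26 changed sign. The alternative with only the conditions compared gave no value for eSLCs against SCs.

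The count of genes called higher in eSLCs was 19 with a filter on all 8 arrays (fewer genes tested), 4 with the processed signal and 15 with the SC arrays as 1 sample (fewer samples), and the count called lower was 1 with the processed signal and 3 with the SC arrays as 1 sample. Leaving out 1 array at a time gave 15 to 30 higher and 3 to 8 lower, with both SC arrays at the low end. For IVP-eSLCs, 14 were higher with the filter on all 8 arrays, 3 with the processed signal, 13 with the SC arrays as 1 sample and 7 with the adjusted t-test, and 1, 3 and 1 were lower with the last 3. For NT-eSLCs, 2, 15 and 4 were higher with these 3 settings, and 0 were lower with the processed signal and 0 with the adjusted t-test. For PA-eSLCs, 0, 13 and 11 were higher and 1, 3 and 3 lower, and 5 were lower with the authors' normalized values. One array left out gave 13 to 25 higher and 2 to 7 lower for IVP-eSLCs, 14 to 25 higher and 3 to 5 lower for NT-eSLCs, and 12 to 28 higher and 3 to 9 lower for PA-eSLCs. Between NT- and IVP-eSLCs, 2 were called higher with the authors' values, 0 to 2 with 1 array left out and 1 without I9 and N2, and 1 lower with the unadjusted t-test, which also called 1 lower between PA- and IVP-eSLCs.

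With the processed signal the sign of the eSLC minus SC log2 difference changed for SLC16A1 (-1.69), SLC16A3 (-1.32), SLC16A7 (-1.09), SLC27A6 (-1.27), SLC2A3 (-2.31), SLC2A5 (-0.49), SLC36A2 (-1.52), SLC38A3 (-1.84), SLC38A9 (-0.093), SLC43A1 (0.45), SLC5A2 (1.06), SLC5A6 (-1.92), SLC6A14 (-3.18), SLC7A10 (-0.68) and FABP4 (1.82); the cause was not tested, and this signal followed the other columns in only 2 files. Uncalled genes near 0 also changed sign elsewhere. SLC16A10 (-0.11 as reported) was at 0.34 with the mean of its probes, 0.081 with a doubled floor and 0.089 without I9 and N2, and ranged from -0.30 (without N7) to 0.0821 (without N2) with 1 array left out. SLC5A2 was at 0.11 with normexp, 0.59 with the authors' values, 0.0402 with a doubled floor and 0.85 without I9 and N2, and ranged from -0.65 (without N7) to 0.60 (without N2) with 1 array left out.

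The median log2 difference of all tested genes, 0.23 as reported, was 0.12 with quantile normalization, 0.11 without a filter, 0.10 with the processed signal and 0.07 with the authors' values. Genes at the floor in SCs have only a lower bound and a p-value that understates the spread, and 2 arrays per condition limit every test.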

Other observations

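Several genes of these families are best known from brain, liver or kidney. The GABA carrier SLC6A11 and the serotonin carrier SLC6A4 were called higher in eSLCs, whereas SLC6A2, SLC6A7 and SLC6A18, carriers of noradrenaline, proline and neutral amino acids, were at the floor on all 8 arrays, and SLC6A13, another GABA carrier, was near the same signal in both (99.3 to 129.7 in eSLCs and 105 and 62.9 in SCs).

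Between the 2 SC passages, 4 of the 61 genes differed by at least 2-fold. SC P10 was above SC P5 for SLC2A13 (81.9 and 189 in SC P5 and SC P10) and SLC5A3 (69.4 and 148), and below it for SLC2A4 (585 and 241) and SLC6A4 (239.8 and 96.3). There is 1 array per passage, so these differences have no replicate check.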
